A study of Mus musculus with 12 samples.

Results

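Medullary and cortical thymic epithelial cells of wild-type mice were compared with each other by bulk RNA-Seq. Of the 12 libraries of the series, the 6 wild-type (WT) libraries entered, 3 of medullary cells (mTEC) and 3 of cortical cells (cTEC), chosen by their labels alone. The mice were C57BL/6, aged 4 to 6 weeks, untreated and without an introduced mutation. Each library held the polyadenylated RNA of cells pooled from 5 to 10 mice, so a replicate is a pool and not an animal. Both subsets were sorted as EpCAM+CD45- cells, cTEC as Ly51+UEA1- and mTEC as Ly51-UEA1+. Ly51 is the product of Enpep, and UEA1 is a lectin. The remaining 6 libraries come from mice lacking MHC class II and enter only where stated.

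The cortical epithelium receives thymocyte progenitors, commits them to the T lineage through Notch ligands and presents self peptides cut by a proteasome and lysosomal proteases of its own, on which positive selection rests. The medullary epithelium attracts the selected thymocytes with CCR7 ligands and displays antigens of peripheral tissues, many of them under the control of Aire or Fezf2. Cells that recognise these antigens are deleted or become regulatory T cells. The medulla also holds cells resembling tuft, microfold, muscle, neuroendocrine, ciliated and skin cells.

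Total estimated counts were 22758935, 32652634 and 27665696 in cTEC replicates 1, 2 and 3, and 21710319, 33334258 and 31172249 in the mTEC replicates. In the same order of replicates, every level below is given in TPM, a unit scaled for transcript length and library size that can be compared between genes. Differences are log2 fold changes of mTEC over cTEC from the counts, with the standard error (SE) in brackets. All adjusted p-values come from the edgeR quasi-likelihood test, adjusted after Benjamini and Hochberg over the 18667 genes that passed the count filter, and 0.05 was the threshold. cTEC replicate 3 stood apart: 235 genes held 50% of its TPM, against 486 and 526 in the other cTEC libraries and 310 to 394 in mTEC. A second fit took in the 6 libraries of the other genotype and is called the 12-library fit. None of the 13 protein genes of the mitochondrial genome passed the test, and all 13 did, higher in mTEC, when that library was left out.

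The labels held in all 6 libraries. Aire, the regulator of peripheral antigen expression in the medulla, had 626, 275 and 243 TPM in mTEC against 2.7, 7.87 and 1.97 in cTEC (log2 fold change 6.51, SE 0.62, adjusted p = 0.000596). Fezf2, a zinc finger factor with a like role, had 291, 236 and 215 TPM in mTEC against 2.77, 6.53 and 6.52 in cTEC (5.53, SE 0.49, adjusted p = 0.000461). The lowest mTEC library was far above the highest cTEC library for either gene. In the opposite direction, Prss16, which encodes the thymus-specific serine protease, had 2372, 2913 and 1141 TPM in cTEC against 60.2, 71.2 and 75.7 in mTEC (-4.93, SE 0.35, adjusted p = 0.000251). Psmb11, the catalytic subunit that defines the thymoproteasome, had 203, 248 and 172 TPM in cTEC against 6.5, 8.88 and 12.9 in mTEC (-4.36, SE 0.36, adjusted p = 0.000398). Ly75, the endocytic receptor CD205 used as a cortical surface marker, stood at 77.9, 88.4 and 40 TPM in cTEC and at 6.31, 3.64 and 5.14 in mTEC (-3.64, SE 0.26, adjusted p = 0.000251). Ccl25, a chemokine for thymocyte progenitors, was the least separated marker, at 2005, 2510 and 1893 TPM in cTEC and 509, 645 and 497 in mTEC (-1.88, SE 0.28, adjusted p = 0.00295).

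Of the genes of the sort, Enpep had 34.1, 49.5 and 9.27 TPM in cTEC against 7.11, 3.39 and 3 in mTEC (-2.65, SE 0.51, adjusted p = 0.00774), and being part of the gate it is no finding. Epcam, present on every sorted cell, had 642, 624 and 641 TPM in mTEC against 435, 443 and 301 in cTEC (0.79, SE 0.21, adjusted p = 0.0276). That difference missed the threshold under the replicate block (adjusted p = 0.0545) and without any of 5 libraries, the exception being cTEC replicate 3 (adjusted p up to 0.122). Ptprc, which encodes the CD45 that the gate excluded, was detected in all libraries, at 18.2, 10.9 and 5.53 TPM in cTEC and 3.77, 3.7 and 4.79 in mTEC. It was called higher in cTEC (-1.56, SE 0.36, adjusted p = 0.0151), a call that was lost without cTEC replicate 1 (adjusted p = 0.0541) or without mTEC replicate 1 or 2 (0.0716 and 0.0713).

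**Figure D1:**
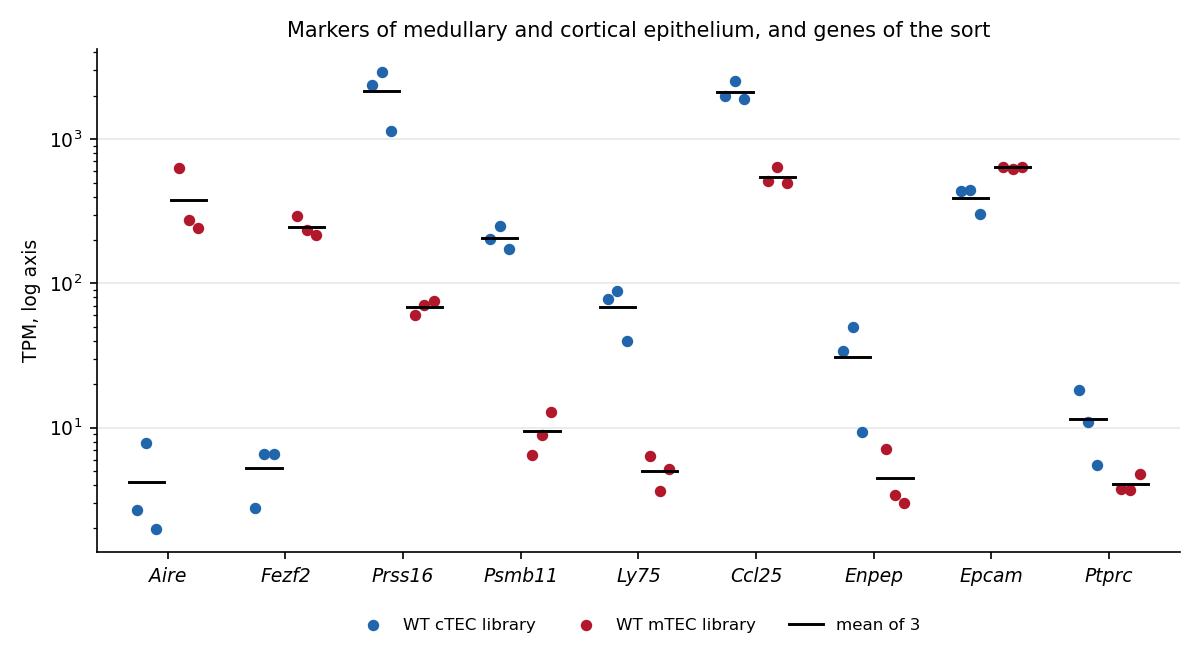
Each point is the TPM of 1 library on a log axis, for 6 markers and 3 genes of the sort, with WT cTEC in blue, WT mTEC in red and the mean of 3 as a bar. Aire and Fezf2 reached at least 215 TPM in every mTEC library and at most 7.87 in any cTEC library, while Prss16 reached at least 1141 TPM in every cTEC library and at most 75.7 in any mTEC library.

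The start sites of the markers and of the genes that set the subsets furthest apart lie in unlike sequence. The 150 bases before the RefSeq start of Aire, Ly75 and Ccl25 are shown as the markers with an entry, and those of Prss29, Ppy, Scn1a and Prss23 as the first 2 genes in either direction, by size of difference, whose RefSeq start lies within 50 bases of the annotated start. Lefty2 and Npr3, the second largest differences, were left out by it, and the rule was set after the values were seen. Capitals mark TATAAA on the gene's strand and CCAAT on either strand (ATTGG where it reads on the other strand). All are from GRCm38.p6, read 5′ to 3′ on the gene's strand.
Aire: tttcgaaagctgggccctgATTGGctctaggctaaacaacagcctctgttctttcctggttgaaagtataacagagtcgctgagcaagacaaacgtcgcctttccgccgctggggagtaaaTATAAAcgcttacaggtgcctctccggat
Ly75: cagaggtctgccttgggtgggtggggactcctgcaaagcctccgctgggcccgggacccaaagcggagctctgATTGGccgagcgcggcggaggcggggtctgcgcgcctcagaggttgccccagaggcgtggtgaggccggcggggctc
Ccl25: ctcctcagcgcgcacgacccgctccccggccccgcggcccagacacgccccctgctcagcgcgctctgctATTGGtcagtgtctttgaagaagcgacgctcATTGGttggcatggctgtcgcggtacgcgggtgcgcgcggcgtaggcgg
Prss29: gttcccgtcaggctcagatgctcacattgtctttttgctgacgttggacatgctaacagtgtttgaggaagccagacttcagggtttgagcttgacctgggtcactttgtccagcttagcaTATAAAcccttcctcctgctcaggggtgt
Ppy: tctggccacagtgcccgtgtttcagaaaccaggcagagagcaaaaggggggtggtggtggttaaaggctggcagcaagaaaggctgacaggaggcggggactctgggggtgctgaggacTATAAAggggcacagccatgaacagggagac
Scn1a: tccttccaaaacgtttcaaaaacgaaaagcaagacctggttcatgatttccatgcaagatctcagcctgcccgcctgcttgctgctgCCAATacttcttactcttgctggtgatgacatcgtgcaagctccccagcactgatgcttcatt
Prss23: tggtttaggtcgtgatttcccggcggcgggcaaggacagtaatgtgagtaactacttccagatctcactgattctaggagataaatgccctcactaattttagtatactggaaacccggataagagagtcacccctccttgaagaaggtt

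In order, these windows are chr10:78043611-78043760 (minus strand), chr2:60383274-60383423 (minus), chr8:4325060-4325209 (plus), chr17:25318504-25318653 (plus), chr11:102101320-102101469 (minus), chr2:66440838-66440987 (minus) and chr7:89527188-89527337 (minus). TATAAA begins 29 bases before the start in Aire and Prss29 and 31 bases before it in Ppy. These letters are not in the windows of Ly75, Ccl25, Scn1a and Prss23. The CpG ratio, which is the observed over the expected number of CG steps in a 300-base window around the start, was 0.225 for Prss29 and 0.175 for Ppy, against 0.697 for Aire, 0.634 for Ly75 and 1.28 for Ccl25. Scn1a and Prss23, at 0.305 and 0.38, lay closer to the mTEC-higher pair than to the cTEC markers. The windows of Aire and Ccl25 overlap the genes Dnmt3l and Elavl1, whose reads this library kit, which keeps no strand, cannot separate where transcripts overlap.

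Across the transcriptome, 4997 of 18667 genes passed the test (26.8%), 3352 of them higher in mTEC (18%) and 1645 higher in cTEC (8.81%). Each count of list or family members below is to be read against these shares. At an unadjusted p under 0.05 there were 6947. On CPM, counts scaled to the library size, the 3 libraries of a subset all lay above the 3 of the other in 47.2% of tested genes, 30.1% with mTEC above and 17.1% with cTEC above. The directions differed in size and level. Genes higher in mTEC had a median log2 fold change of 5.23 and a median mTEC level of 6.43 TPM, and 992 of them had no count in any cTEC library. Genes higher in cTEC had a median of -1.43 and a median cTEC level of 32.1 TPM, and 2 of them had no count in mTEC. The count filter keeps genes counted in either subset alone, so the direction of such genes was set before the test. With a further limit of a 4-fold difference, 2870 genes were higher in mTEC (15.4%) and 447 higher in cTEC (2.39%), so that the share of calls in the mTEC direction was 67.1% without and 86.5% with that limit. The count of calls was 3395 to 7572 on leaving out a library, highest without cTEC replicate 3, when 4838 genes (24.3%) were called higher in mTEC and 2734 (13.7%) higher in cTEC. Lower counts in the cTEC direction came without mTEC replicates 1, 2 and 3 (932, 795 and 872).

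A bulk level cannot tell fewer cells of a type from less RNA per cell, and this holds for every comparison here. By the study's sorting records the cTEC sort gave fewer cells than the mTEC sort, so the number of sorted cells and the subset cannot be told apart.

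**Figure D2:**
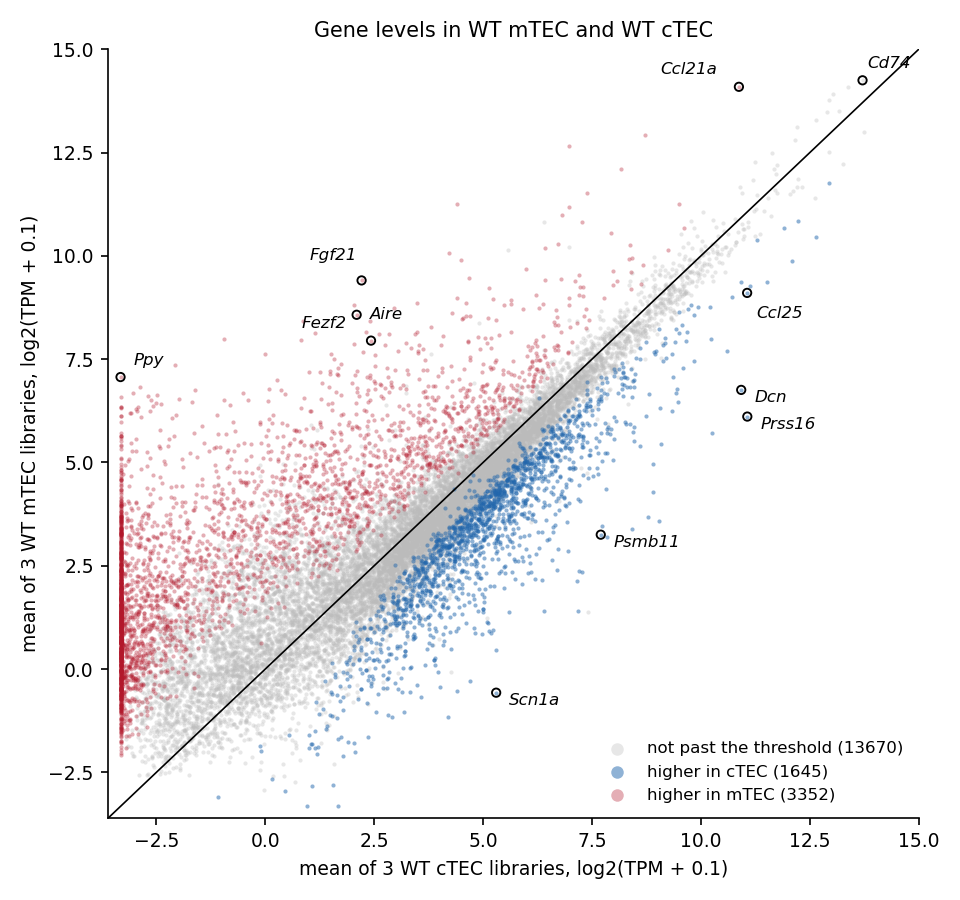
Each point is 1 tested gene, with the mean TPM of the 3 WT cTEC libraries on the horizontal and of the 3 WT mTEC libraries on the vertical axis, both as log2(TPM + 0.1). The column of red points at the left edge holds genes without a count in cTEC, such as Ppy, while genes higher in cTEC (blue) mostly lie close to the diagonal of equal levels.

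RNA of other cells was looked for in the same libraries, and its part in the results below was not tested. Of 20 thymocyte markers, 13 passed the test as higher in cTEC (65%, against 8.81% over all genes) and none as higher in mTEC (5 in cTEC in the 12-library fit, and 6 to 14 on leaving out a library, lowest without mTEC replicate 2). Their summed level was 933, 795 and 367 TPM in cTEC and 192, 211 and 306 in mTEC. Cd8b1 stood at 113, 94.5 and 44.4 TPM in cTEC and 8.73, 14.5 and 25.6 in mTEC, and Dntt, the terminal transferase of cortical thymocytes, at 64.7, 58 and 16.4 against 5.74, 6.77 and 10.7. No thymocyte marker was at 0 in all libraries of a subset. Of 19 tested markers of dendritic cells, macrophages and B cells, 9 were higher in mTEC (47.4%, against 18% over all genes) and 1 in cTEC (2 and 0 in the 12-library fit, 4 to 14 in the mTEC direction, the extremes without mTEC replicate 1 and without cTEC replicate 3, and 0 to 2 in the cTEC direction). Their sums were 58.7 to 119 TPM in cTEC and 114 to 154 in mTEC. Cd79b, a B cell receptor subunit, had 21.6, 17.9 and 27.7 TPM in mTEC against 1.68, 5.74 and 1.32 in cTEC.

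Fibroblast and pericyte markers summed to 2471, 3403 and 2026 TPM in cTEC and to 661, 703 and 796 in mTEC. Of 18, 4 were higher in cTEC (22.2%, against 8.81% over all genes) and 1 in mTEC (5.56%, under the 18% over all genes; 2 in mTEC without cTEC replicate 2). The genes higher in cTEC were Dcn, Lum, Col1a2 and Col3a1, and Rgs5, a pericyte gene, was higher in mTEC. No gene of that list was at 0 in all libraries of a subset. Dcn made up most of the cTEC sum, with 1930, 2333 and 1569 TPM, and had 92.1, 97.3 and 136 TPM of the mTEC sum. Erythroid genes, led by globins, summed to 1485, 5.49 and 41.1 TPM in cTEC and to 832, 573 and 589 in mTEC, so cTEC replicate 1 differed from its group. Of 7 tested erythroid genes, 2 were higher in mTEC (28.6%, against 18% over all genes; 5 without cTEC replicate 1) and none in cTEC. Granulocyte markers summed to 731, 249 and 231 TPM in cTEC and 2292, 1644 and 1638 in mTEC. Of 14 tested granulocyte markers, 3 were higher in mTEC (21.4%, near the 18% over all genes; 2 to 6 on leaving out a library) and none in cTEC. S100a8, a gene of that list that keratinocytes also use, stood at 137, 0 and 6.05 TPM in cTEC and 1406, 967 and 1008 in mTEC. It missed the threshold (4.81, SE 1.57, adjusted p = 0.0569), which it passed without cTEC replicate 1 (adjusted p = 0.00801) or 2 (0.0223), under the replicate block (0.0354) and in the 12-library fit (0.0354). Endothelial markers summed to 54.6 to 152 TPM in cTEC and 60.1 to 92.3 in mTEC. In each direction 1 of 14 was called (7.14%, under the 18% in mTEC and near the 8.81% in cTEC over all genes; 3 in cTEC without cTEC replicate 1, 2 in mTEC without cTEC replicate 2).

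Factors that drive medullary maturation were mostly higher in mTEC: 13 of 25 medullary regulators and inputs of NF-kB were higher in mTEC (52%) and 4 in cTEC (16%; median log2 fold change 1.88, against 0.06 over all tested genes). Tnfrsf11a, the receptor RANK through which thymocytes mature the medulla, had 95.1, 89.8 and 75 TPM in mTEC against 5.37, 1.63 and 5.51 in cTEC (4.61, SE 0.59, adjusted p = 0.00167). Cd40, another TNF receptor of this pathway, had 270, 218 and 201 TPM against 22.1, 18.5 and 8.61 (3.88, SE 0.24, adjusted p = 0.000146). The RANKL decoy receptor Tnfrsf11b was higher as well (3.47, SE 0.47, adjusted p = 0.00223). Downstream, Relb, the subunit of alternative NF-kB signalling, differed by 1.88 (SE 0.21), and Spib, an Ets factor, by 4.62 (SE 0.45). Irf8 and Sirt1, both named as regulators of Aire, were higher in mTEC by 1.56 (SE 0.30) and 2.15 (SE 0.25). The epithelial Ets factors Elf3 and Ehf were higher by 1.98 (SE 0.39) and 2.77 (SE 0.47).

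Members of the same list that were higher in cTEC included Trp63, the p63 factor of basal epithelium, at 269, 283 and 149 TPM in cTEC and 54.1, 50.5 and 69.2 in mTEC (-2.06, SE 0.25, adjusted p = 0.00137). Ltbr, the lymphotoxin receptor, was called higher in cTEC (-0.99, SE 0.24, adjusted p = 0.0187), a call that was lost without cTEC replicate 1 (adjusted p = 0.0639) and without any mTEC replicate (0.0673 to 0.0851). The cTEC count of this list was 1 to 4 on leaving out a library, lowest without mTEC replicate 3.

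Genes of the cortical niche had the largest share of members higher in cTEC among the 76 lists and families, with 17 of 24 higher in cTEC (70.8%) and 1 in mTEC (4.17%). The list was made of genes known for the cortex, with earlier results of these data known, so its rank is no independent result. Cxcl12, a chemokine that retains thymocyte progenitors in the cortex, had 1218, 1715 and 736 TPM in cTEC against 34.3, 55 and 68.1 in mTEC (-4.40, SE 0.39, adjusted p = 0.000468). Ackr4, a scavenger receptor of CCR7 ligands, had 560, 595 and 429 TPM against 10.3, 10.1 and 15.3 (-5.37, SE 0.30, adjusted p = 0.000122). Ctsl, which encodes cathepsin L, reached 4634, 6014 and 2333 TPM against 686, 984 and 1126 (-2.04, SE 0.33). Cd83, which limits MHC class II turnover, differed by -3.30 (SE 0.45), and Kitl, the stem cell factor for progenitors, by -3.46 (SE 0.33). The Notch ligand Dll4 had 37.7, 35.7 and 9.78 TPM in cTEC and 8.8, 5.55 and 2.94 in mTEC (-2.04, SE 0.46, adjusted p = 0.0128, and 0.0523 without mTEC replicate 2). Dll1 had 68.1, 42.1 and 42 against 8.42, 9.65 and 10.4 (-2.19, SE 0.34, adjusted p = 0.00364). The transcription factor Pax1 and the thymus-specific Tbata were also higher in cTEC, with log2 fold changes of -2.46 (SE 0.26) and -1.97 (SE 0.28).

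The member of the cortical list that went against it was Fgf21, a secreted growth factor, which had 831, 625 and 576 TPM in mTEC against 3.39, 9.95 and 0.238 in cTEC (7.45, SE 0.98, adjusted p = 0.002). Foxn1, the master factor of thymic epithelium, overlapped between the subsets, at 95.1, 106 and 25.2 TPM in cTEC and 76.3, 45.9 and 46 in mTEC (-0.26, SE 0.38, adjusted p = 0.666). Il7, the cytokine for early thymocytes, overlapped as well (-0.45, SE 0.28, adjusted p = 0.283).

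Genes of antigen processing were counted by step. Of 7 catalytic subunits of the proteasome, Psmb11 and Psmb9 were called, both higher in cTEC (28.6%, against 8.81% over all genes; 1 call without mTEC replicate 1). The constitutive and immune counterparts of Psmb11, Psmb5 and Psmb8, had 273 to 311 and 324 to 365 TPM in cTEC and 298 to 335 and 384 to 394 in mTEC, with log2 fold changes of 0.12 (SE 0.27, adjusted p = 0.782) and 0.20 (SE 0.24, adjusted p = 0.589). Psmb9 had 588, 485 and 652 TPM in cTEC against 271, 253 and 256 in mTEC (-1.09, SE 0.28, adjusted p = 0.021), and its call was lost without any mTEC replicate (adjusted p 0.075 to 0.0774).

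MHC class II genes were abundant in both subsets. Of 14 genes of the class II list, 3 were higher in mTEC (21.4%, near the 18% over all genes) and 1 in cTEC (7.14%, near the 8.81%). H2-Ab1 had 9055, 9640 and 9150 TPM in cTEC and 11506, 11966 and 11674 in mTEC, without passing the test (0.39, SE 0.29, adjusted p = 0.385), and Ciita, the class II transactivator, had 67.1, 83.5 and 48.8 against 61.6, 44.5 and 37.8 (-0.39, SE 0.22, adjusted p = 0.251). The 3 called higher in mTEC were H2-Eb2 (2.27, SE 0.30), H2-Oa and H2-Ob. H2-Oa and H2-Ob, the chains of the inhibitor H2-O, were higher in mTEC by 2.08 (SE 0.21, adjusted p = 0.000672) and 1.93 (SE 0.31, adjusted p = 0.00409). H2-DMa, a chain of the loading factor that H2-O inhibits, had 601, 533 and 642 TPM in cTEC against 176, 201 and 181 in mTEC (-1.64, SE 0.32, adjusted p = 0.00768). Without cTEC replicate 3 the list had 7 genes higher in mTEC, among them H2-Aa (0.96, adjusted p = 0.00956) and Cd74 (0.78, adjusted p = 0.044). Of 12 class I genes none was called higher in mTEC (3 with DESeq2). Erap1 alone was called higher in cTEC (8.33%, near the 8.81% over all genes), at adjusted p = 0.0488. That call was lost without any library but cTEC replicate 3 (adjusted p 0.102 to 0.167) and under the replicate block (0.0557). It was also lost with RLE factors (0.0588), without scaling factors (0.0911) and on counts rebuilt from TPM (0.247). Without cTEC replicate 3, B2m (1.18, adjusted p = 0.0151) and H2-K1 (0.60, adjusted p = 0.0439) were called higher in mTEC.

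Of 15 lysosomal proteases, 4 were higher in mTEC (26.7%, against 18% over all genes) and 3 in cTEC (20%, against 8.81%). Ctss, the protease that trims the invariant chain in antigen-presenting cells, had 236, 213 and 195 TPM in mTEC against 16.5, 8.32 and 12.1 in cTEC (4.17, SE 0.34, adjusted p = 0.000354). Ctsh (3.50, SE 0.34) and Ctsz (1.93, SE 0.20) followed it, whereas Ctsl and Prss16 lay on the cortical side. The cTEC count ranged from 2 to 5, the extremes without cTEC replicates 1 and 3. Of 27 macroautophagy genes, 1 was called in each direction (3.7%, under the 18% and 8.81% over all genes; 0 to 2 in mTEC and 0 to 3 in cTEC, highest without cTEC replicate 3).

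Of 36 chemokine ligands tested, 24 were higher in mTEC (66.7%, against 18% over all genes) and 3 in cTEC (8.33%, near the 8.81% over all genes). Ccl21a, the CCR7 ligand that draws selected thymocytes into the medulla, was among the highest transcripts of mTEC, with 14333, 18136 and 19881 TPM against 643, 2506 and 2475 in cTEC (3.20, SE 0.62, adjusted p = 0.00779). Reads of its near-identical copies could be split by the counting, so its value is uncertain. Ccl19, the other CCR7 ligand, had 1221, 1220 and 1325 TPM against 97.9, 115 and 102 (3.66, SE 0.28, adjusted p = 0.000294). Xcl1, which recruits dendritic cells, had 22.4, 26.6 and 23.7 TPM in mTEC and no count in cTEC, which made it at least 70.8-fold higher, counting 3 reads as the floor of the mean cTEC library. Ccl1 had 71.6, 80.3 and 53.1 TPM in mTEC and 0, 0.118 and 0 in cTEC. The CXCR3 ligands Cxcl9 and Cxcl10 were higher in mTEC by 3.56 (SE 0.48) and 2.69 (SE 0.28), Ccl20 by 4.68 (SE 0.75) and Ccl5 by 3.01 (SE 0.46). Ccl17 had 48.1, 49.8 and 35.3 TPM in mTEC against 1.61, 0.948 and 12.8 in cTEC and missed the threshold (2.85, SE 1.10, adjusted p = 0.0975), which it passed without cTEC replicate 3 (5.39, adjusted p = 0.000398). The 3 ligands higher in cTEC were Ccl25, Cxcl12 and Cx3cl1, the last at 161, 177 and 45.7 TPM against 33.9, 23.5 and 30.4 (-1.94, SE 0.34, adjusted p = 0.00592).

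**Figure D3:**
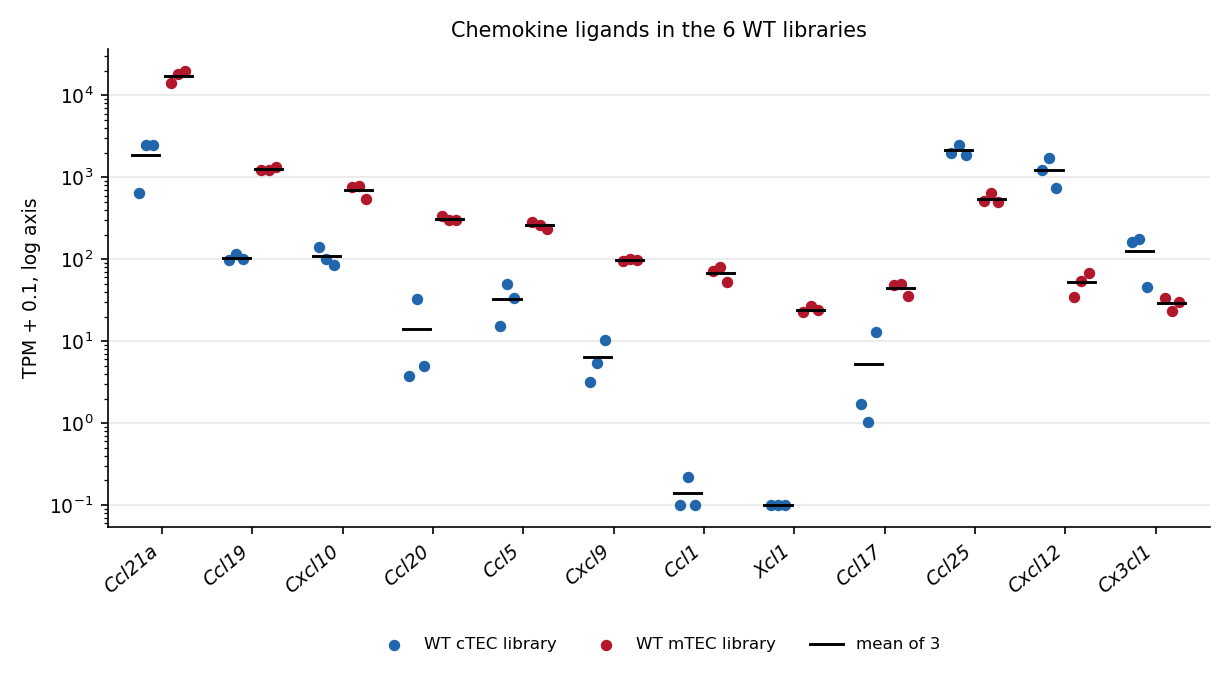
Points are libraries (WT cTEC in blue, WT mTEC in red) and bars the mean of 3, on a log axis of TPM + 0.1, for 12 chemokine ligands. Of these, the first 9 lay higher in every mTEC library than in every cTEC library and the last 3, Ccl25, Cxcl12 and Cx3cl1, the other way round, and Xcl1 sat at 0 TPM in all cTEC libraries. On CPM, 30.1% of all tested genes lay so with mTEC above and 17.1% with cTEC above.

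Of 36 interleukin ligands tested, 22 were higher in mTEC (61.1%) and 2 in cTEC (5.56%; 12 and 1 in the 12-library fit, and 14 to 27 in the mTEC direction, the extremes without mTEC replicate 1 and without cTEC replicate 3). Il23a, a subunit of interleukin 23, had 132, 125 and 106 TPM in mTEC against 4.93, 4.89 and 1.78 in cTEC (5.06, SE 0.30, adjusted p = 0.000138). Il1rn, the interleukin 1 receptor antagonist, had 121, 118 and 115 against 5.59, 6.56 and 6.38 (4.26, SE 0.34, adjusted p = 0.000343). The cTEC-higher pair was Il33, an alarmin, at 163, 205 and 92.8 TPM against 3.45, 5.14 and 6.49 (-4.80, SE 0.36, adjusted p = 0.000294), and Il34, a ligand of the CSF1 receptor, at 41.2, 35 and 57 against 5.61, 6.33 and 4.51 (-2.83, SE 0.37, adjusted p = 0.00195).

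Costimulatory and coinhibitory ligands were higher in mTEC in 8 of 16 cases (50%) and in cTEC in none (5 in the 12-library fit, and 5 to 10 on leaving out a library, lowest without mTEC replicate 1 and highest without cTEC replicate 3). Cd86, a CD28 ligand, had 15.8, 9.85 and 8.53 TPM in mTEC against 0.673, 0.145 and 0.509 in cTEC (4.97, SE 0.77, adjusted p = 0.00371), and Icosl had 123, 91.1 and 60.5 against 22.2, 16.8 and 6.02 (2.78, SE 0.41, adjusted p = 0.00295). Cd80, the other CD28 ligand, stood at 18.7, 10.8 and 11.4 TPM in mTEC and 0, 2.48 and 0.025 in cTEC and missed the threshold (adjusted p = 0.0759), which it passed without cTEC replicate 2 (adjusted p = 0.000695) or 3 (0.0481). Of 28 TNF receptors, 9 were higher in mTEC (32.1%, against 18% over all genes) and 5 in cTEC (17.9%, against 8.81%; 3 in the 12-library fit, 2 to 7 in the cTEC direction, the extremes without mTEC replicate 1 and without cTEC replicate 3, and 3 under the replicate block). Tnfrsf9 (6.08, SE 0.97) and the death receptor Fas (1.57, SE 0.29) were on the mTEC side, while Tnfrsf1a (-1.26, SE 0.21) and Tnfrsf19 (-4.06, SE 0.47) were on the cTEC side. Of 17 TNF ligands, 6 were higher in mTEC (35.3%) and 1 in cTEC (5.88%; 3 and 0 in the 12-library fit, and 3 to 9 in the mTEC direction, the extremes without mTEC and cTEC replicate 2).

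Of the 15 protein-coding genes with the largest difference in the mTEC direction, 14 had no count in any cTEC library, and only Pgc, a gastric protease precursor, had a trace there (0, 0 and 0.106 TPM against 153, 112 and 75.8 in mTEC). Ordered by their lower bounds, they were the serine protease Prss29 (at least 403-fold higher), the Nodal antagonist Lefty2 (at least 372-fold), the pancreatic polypeptide gene Ppy (at least 364-fold), Mucl2 (at least 351-fold), the opioid precursor Pdyn (at least 343-fold), the glucagon gene Gcg (at least 322-fold), Klk6 (at least 321-fold), Sprr2i, whose close copies can share its reads (at least 283-fold), the peptide receptor Qrfpr (at least 245-fold), the incretin gene Gip (at least 239-fold), Akr1c18 (at least 231-fold), the eosinophil peroxidase gene Epx (at least 225-fold), Mucl1 (at least 204-fold) and the casein gene Csn1s2a (at least 198-fold). These bounds grow with the level in mTEC and the depth in cTEC, and so do not rank the genes by regulation. Epx is a gene of eosinophils, and granulocyte markers also summed higher in mTEC (2292, 1644 and 1638 TPM, against 731, 249 and 231 in cTEC), a part that was not tested. Of 14 tested granulocyte markers, 3 were called higher in mTEC (21.4%, near the 18% over all genes). Ppy, for example, stood at 136, 130 and 137 TPM in mTEC, and Prss29 at 66.8, 35.4 and 56.4.

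Hormones of islet and gut were higher in mTEC in 14 of 16 tested cases (87.5%, against 18% over all genes) and in cTEC in none (9 to 16, lowest without mTEC replicate 1 and highest without cTEC replicate 3). The insulin gene Ins2 had 50, 92.1 and 67.3 TPM in mTEC and no count in cTEC, at least 176-fold higher. Pyy, an ileal peptide hormone, had 251, 161 and 177 TPM in mTEC against 0, 0.228 and 2.44 in cTEC (7.47, SE 1.08, adjusted p = 0.00283). Sst, the somatostatin gene, missed the threshold, at 0.397, 1.17 and 26.2 TPM against 192, 72.3 and 80.9 in mTEC (adjusted p = 0.127), and passed it without cTEC replicate 3 (7.33, adjusted p = 0.000231). Of 9 milk proteins tested, 8 were higher in mTEC (88.9%). Csn2, the beta-casein gene, had 1223, 1035 and 983 TPM there against 13.8, 38.4 and 3.69 in cTEC (6.11, SE 0.70, adjusted p = 0.00115).

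Other tissues followed the same direction with uneven counts. Of 17 salivary and lacrimal genes in the annotation, 10 were at 0 TPM in every cTEC library and could pass the count filter only through mTEC. Tested were 10 of the 17, and 9 were higher in mTEC (90%), a share that the filter can set in part. Among these 9 was Dcpp1, with 66.2, 73.1 and 64 TPM in mTEC. Of 27 liver plasma protein genes tested, 18 were higher in mTEC (66.7%; 9 in the 12-library fit), including Crp, an acute-phase protein (6.70, SE 0.61), and Apoa1, an apolipoprotein of HDL (5.17, SE 0.45). Alb, the albumin gene, reached 3.68, 2.45 and 2.31 TPM in mTEC with no count in cTEC (at least 39-fold higher), well below Crp at 82.6, 85 and 103. Apoc1 went the other way, at 458, 322 and 837 TPM in cTEC and 131, 186 and 236 in mTEC, without passing the test (adjusted p = 0.0593, against 0.0202 without cTEC replicate 2 and 0.0421 under the replicate block). Of 21 exocrine pancreas genes, 12 were higher in mTEC (57.1%), led by Clps, the colipase gene (134, 35.7 and 56.6 TPM against 0, 0 and 0.183). Thyroid, adrenal and pituitary genes were higher in mTEC in 11 of 17 cases (64.7%; 6 in the 12-library fit). Pomc, the precursor of corticotropin, stood at 237, 114 and 120 TPM against 2.27, 7.18 and 11, and Calca, the calcitonin gene, at 377, 235 and 225 against 0.915, 3.28 and 2.17.

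Among neural antigens 16 of 29 were higher in mTEC (55.2%) and 1 in cTEC (3.45%; 6 and 0 in the 12-library fit, 0 in cTEC without cTEC replicate 2, and 8 to 19 in mTEC, lowest without mTEC replicate 1). The synaptic genes Syt1 (5.13, SE 0.50) and Gad1 (7.76, SE 0.69) were higher in mTEC. Retina and lens genes were called in 13 of 21 cases (61.9%; 8 in the 12-library fit and 7 under the replicate block), Cryaa, a lens crystallin, having 51.9, 29.6 and 37 TPM in mTEC against 0, 0.257 and 1.11 in cTEC. Germ line genes were called in 12 of 20 tested cases, all higher in mTEC (60%; 6 in the 12-library fit and under the replicate block, and 7 to 14 on leaving out a library, lowest without mTEC replicate 2 and highest without cTEC replicate 3). Zp3, an egg coat protein, had 7.38, 7.27 and 8.75 TPM in mTEC and no count in cTEC (at least 68.9-fold higher). Kidney genes were called in 4 of 13 cases (30.8%, against 18% over all genes; 1 in the 12-library fit, 2 under the block, and 2 to 7 on leaving out a library, the extremes without mTEC replicate 2 and without cTEC replicate 3), among them Ren1, the renin gene (4.91, SE 0.40).

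All 15 small proline-rich genes, which encode precursors of the skin's cornified envelope, were higher in mTEC (9 in the 12-library fit, and 10 to 15 on leaving out a library). Of 64 defensins in the annotation, 55 were at 0 TPM in every cTEC library. Most of the 30 tested thus passed the count filter through mTEC alone, which set their direction. Of those 30, 28 were higher in mTEC (93.3%; 18 under the replicate block), although near-identical alpha-defensins share reads and their separate values are uncertain. The exception was Defb1, a constitutive beta-defensin, at 177, 165 and 178 TPM in cTEC against 29.6, 35.4 and 43.5 in mTEC (-2.21, SE 0.30, adjusted p = 0.00225). Kallikreins were called higher in mTEC in 19 of 27 cases (70.4%; 11 in the 12-library fit), and stomach and skin antimicrobials in 12 of 16 (75%), with 1 of them higher in cTEC. Reg3g, an intestinal lectin, reached 4672, 4808 and 3610 TPM in mTEC against 108, 331 and 417 in cTEC (3.86, SE 0.62, adjusted p = 0.00412).

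**Figure D4:**
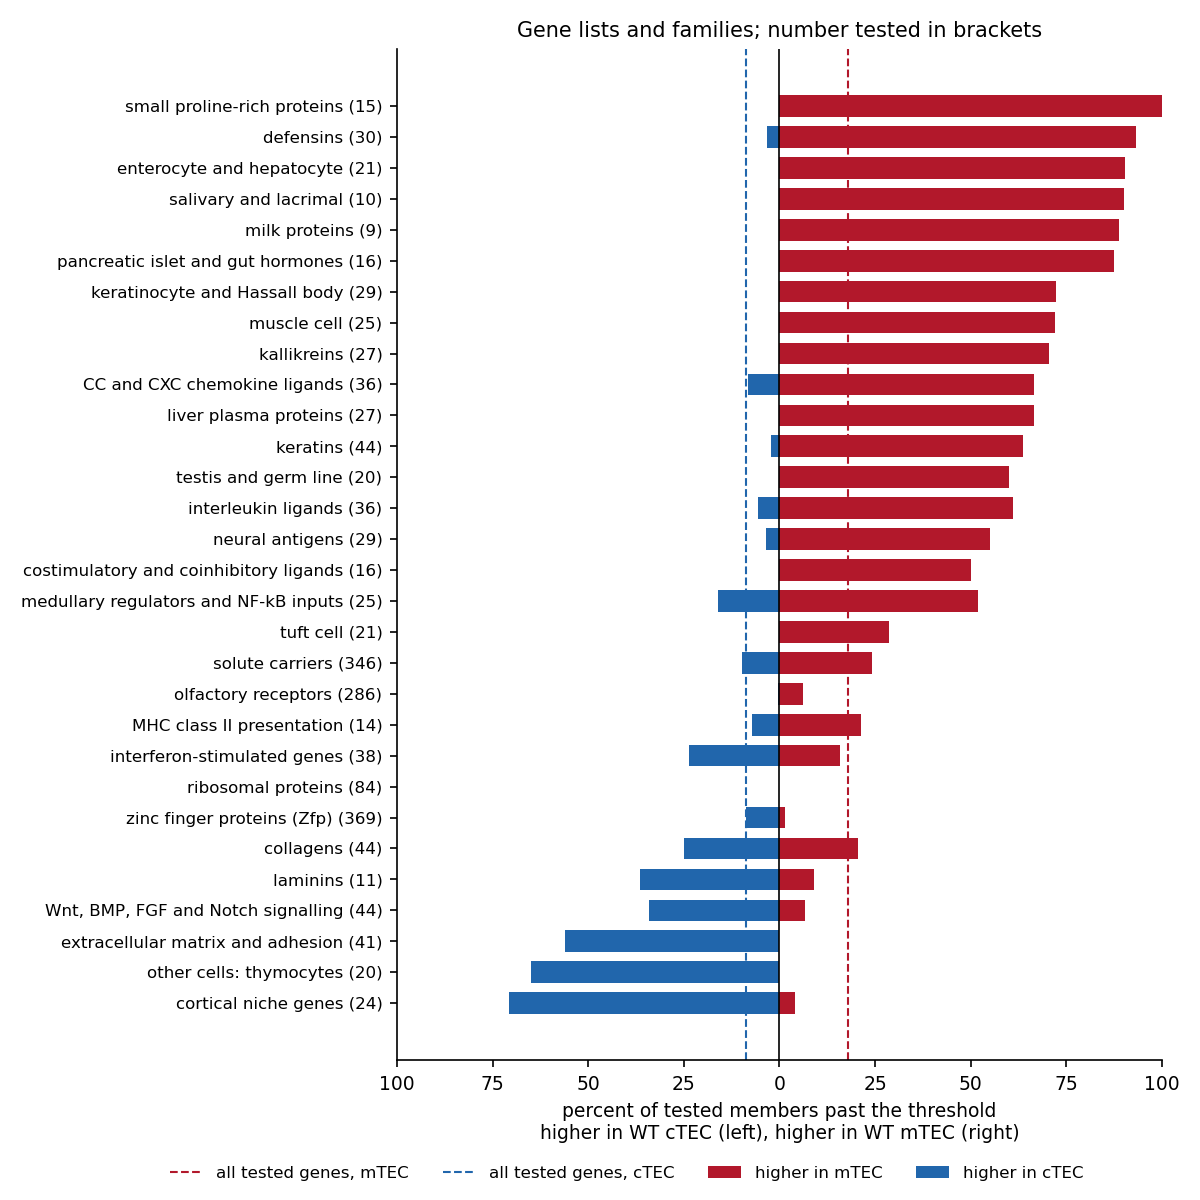
Bars give the percent of the tested members of a list or family that passed the test, to the right for genes higher in WT mTEC and to the left for genes higher in WT cTEC, with the number tested in brackets. Dashed lines mark the shares over all tested genes, 18% and 8.81%. Small proline-rich genes reached 100% on the mTEC side, and cortical niche genes 70.8% on the cTEC side.

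Markers of specialised cell types of the medulla varied in how firmly they separated the subsets. Muscle genes were called in 18 of 25 cases, all higher in mTEC (72%; median 4.98). Myog, the myogenic factor myogenin, had 116, 76.4 and 82.3 TPM in mTEC against 1.85, 0.133 and 0 in cTEC (7.41, SE 1.12, adjusted p = 0.00331), and Actc1, a sarcomeric actin, had 59, 41.5 and 40.5 against 0.0459, 0.246 and 0.0585 (9.88, SE 0.44, adjusted p = 8.22e-05). Myh1, an adult myosin heavy chain, overlapped, at 2.36, 2.17 and 1.08 TPM in mTEC and 4.09, 1.96 and 3.01 in cTEC. Enterocyte and hepatocyte genes were called in 19 of 21 cases (90.5%, against 18% over all genes; 8 in the 12-library fit; median 5.16), with the intestinal factor Cdx1 (6.30, SE 0.56) among them. Neuroendocrine genes were called in 9 of 18 cases in mTEC (50%) and 1 in cTEC (5.56%). Insm1, a neuroendocrine factor, had 62.3, 34.7 and 36.1 TPM in mTEC against 1.79, 1.67 and 0.699 in cTEC (5.12, SE 0.33, adjusted p = 0.000217), while Cpe, a peptide-processing enzyme, was higher in cTEC (-2.24, SE 0.26, adjusted p = 0.00113). Chga, the granule protein chromogranin A, stood at 429, 146 and 204 TPM in mTEC and 132, 146 and 197 in cTEC (adjusted p = 0.321, and 0.0446 without cTEC replicate 3).

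Tuft cell genes passed the test in 6 of 21 cases, all higher in mTEC (28.6%, against 18% over all genes; 3 in the 12-library fit, 11 with DESeq2, 3 to 13 on leaving out a library, lowest without mTEC replicate 1 and highest without cTEC replicate 1, and 9 under the replicate block). Gng13, a taste G protein subunit, had 443, 291 and 520 TPM in mTEC against 83.5, 31.9 and 66.1 in cTEC (2.74, SE 0.44, adjusted p = 0.00425). Trpm5, the tuft cell cation channel, stood at 71, 19.9 and 33.3 TPM in mTEC and 14.9, 1.28 and 0.132 in cTEC (adjusted p = 0.114), and the factor Pou2f3 at 23.3, 11.9 and 19.2 against 11.6, 1.45 and 4.49 (adjusted p = 0.0953). For both genes, cTEC replicate 1 was the highest cTEC library, and without it they passed (6.17, adjusted p = 0.00853 for Trpm5 and 2.35, adjusted p = 0.0415 for Pou2f3), as they did under the replicate block (adjusted p = 0.032 and 0.0367). Microfold cell genes were called in 6 of 10 cases (60%), with Pglyrp1, a peptidoglycan receptor, at 440, 411 and 426 TPM in mTEC against 92.4, 92.2 and 48.5 in cTEC (2.58, SE 0.20, adjusted p = 0.000318). Gp2, the microfold uptake receptor, stood at 302, 147 and 183 TPM in mTEC and 207, 42.5 and 5.36 in cTEC (adjusted p = 0.276, and 0.0209 without cTEC replicate 1). Ionocyte genes were called in 6 of 11 cases (54.5%; 3 in the 12-library fit, and 3 to 8 on leaving out a library, the extremes without mTEC and cTEC replicate 1), all higher in mTEC. Goblet and airway secretory genes were higher in mTEC in 14 of 24 cases (58.3%; 8 without mTEC replicate 1 and in the 12-library fit). Among them Tff3, a mucus peptide, stood at 463, 291 and 271 TPM against 0.171, 0.376 and 4.63. Ciliated cell genes were higher in mTEC in 4 of 17 cases (23.5%, near the 18% over all genes). That count was 0 in the 12-library fit, 8 with DESeq2 and 1 to 9 on leaving out a library, the extremes without mTEC replicate 1 and without cTEC replicate 3. Ciliated and secretory genes called in cTEC were 1 each (0 secretory genes without mTEC replicate 1).

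The keratins form the filaments of epithelium. Of 44 tested, 28 were higher in mTEC (63.6%; 14 in the 12-library fit) and 1 in cTEC (2.27%; 0 in cTEC under the replicate block and without cTEC replicate 1). Krt20, an intestinal keratin, had 69.8, 45.9 and 49.4 TPM in mTEC against 0.24, 0.0252 and 0 in cTEC (9.57, SE 0.76, adjusted p = 0.000337), and Krt16, a keratin of stressed skin, had 53.2, 30 and 31.3 against 0.323, 0.876 and 0.145 (6.51, SE 0.58, adjusted p = 0.000488). Krt17, at 2381, 2568 and 2326 TPM against 826, 904 and 438, was abundant in both (1.88, SE 0.26, adjusted p = 0.00225). Krt14, used as a medullary marker by immunostaining, overlapped at the RNA level, at 1051, 999 and 1264 TPM in mTEC and 1068, 1103 and 927 in cTEC (0.39, SE 0.24, adjusted p = 0.296). Krt8, the cortical counterpart, overlapped too, at 1853, 1543 and 1424 in mTEC and 2365, 2596 and 1097 in cTEC (-0.20, SE 0.27, adjusted p = 0.641). Keratinocyte genes in general were called in 21 of 29 cases (72.4%), all higher in mTEC, with Flg, the filaggrin gene, at 65.6, 47.5 and 18.9 TPM against 0.0734, 0.329 and 0.434. Claudins, the strand proteins of tight junctions, were higher in mTEC in 9 of 18 cases (50%; 5 in the 12-library fit) and in cTEC in 1 (5.56%; 3 in cTEC without cTEC replicate 3). Cldn7 (3.46, SE 0.20), Cldn3 (2.86, SE 0.37) and Cldn13 (9.19, SE 0.71) were on the mTEC side, and Cldn8 on the cTEC side (-2.59, SE 0.51, adjusted p = 0.00833).

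On the cortical side, genes of the extracellular matrix were higher. Of 41 matrix and adhesion genes, 23 were higher in cTEC (56.1%, against 8.81% over all genes) and none in mTEC (15 in the 12-library fit and 16 to 27 on leaving out a library; median -1.27). Dcn, the proteoglycan decorin, had 1930, 2333 and 1569 TPM in cTEC against 92.1, 97.3 and 136 in mTEC (-4.07, SE 0.31, adjusted p = 0.000294), and Sparc, a collagen-binding glycoprotein, had 743, 1101 and 916 against 148, 183 and 196 (-2.34, SE 0.30, adjusted p = 0.00162). Basement membrane genes included Lamb1 (-2.27, SE 0.30), Lamc1 (-2.16, SE 0.33) and Col18a1, at 260, 250 and 82.6 TPM against 34.9, 21.4 and 22.8 (-2.81, SE 0.34). Of 44 collagens, 9 were higher in mTEC (20.5%, near the 18% over all genes) and 11 in cTEC (25%, against 8.81%; 2 in the mTEC direction in the 12-library fit, and 3 to 13 in the mTEC direction, the extremes without mTEC replicate 1 and without cTEC replicate 3). Of 31 integrins, 6 were higher in mTEC (19.4%, near the 18% over all genes; 3 under the replicate block and in the 12-library fit, and 4 to 9 on leaving out a library, the extremes without mTEC replicate 1 and without cTEC replicate 2). Higher in cTEC were 8 (25.8%; 5 in the 12-library fit, and 4 to 9 on leaving out a library, lowest without cTEC replicate 1). Itga1 (-2.91, SE 0.22) and Itga8 (-3.35, SE 0.29) were higher in cTEC and Itgb8 (3.41, SE 0.36) in mTEC. Dcn and Col3a1 (-3.06, SE 0.65, adjusted p = 0.0106) are also fibroblast markers, a list that summed to 2471, 3403 and 2026 TPM in cTEC against 661, 703 and 796 in mTEC, and its part in these differences was not tested.

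The genes with the largest differences in the cTEC direction belonged to varied families. Scn1a, a voltage-gated sodium channel, led with 36.4, 50.6 and 30.9 TPM in cTEC against 0.387, 0.587 and 0.745 in mTEC (-6.52, SE 0.37, adjusted p = 0.000138). After it came Npr3, a clearance receptor of natriuretic peptides (-6.08, SE 0.76), the serine protease gene Prss23 (-5.66, SE 0.68), the secreted Cthrc1 (-5.65, SE 0.82), Ackr4, Cys1 (-5.29, SE 0.52), the membrane proteolipid gene Gpm6b (-5.23, SE 0.29), the neurotrophin gene Ntf3 (-5.03, SE 0.41), Serpinf1 (-5.02, SE 0.41), the matrix protein gene Prelp (-4.94, SE 0.34), Prss16, Il33, Col8a2 (-4.80, SE 0.81), Aldh1a1 (-4.73, SE 0.26) and the sugar transporter gene Slc2a12. Prss23 had 128, 232 and 71.6 TPM in cTEC against 1.52, 4.45 and 1.66 in mTEC. Serpinf1, an antiangiogenic serpin, had 513, 480 and 320 against 9.77, 10.2 and 18.3. Aldh1a1, a retinal dehydrogenase, had 140, 174 and 114 against 4.67, 3.07 and 5.18. Genes with overlapping libraries were not eligible for these 15, so their separation was set by the choice. The call of Slc2a12 (-4.70, SE 1.01, adjusted p = 0.0109) was lost without mTEC replicate 1 (adjusted p = 0.0581).

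Among signalling genes of the Wnt, BMP, FGF and Notch pathways, 15 of 44 were higher in cTEC (34.1%, against 8.81% over all genes) and 3 in mTEC (6.82%; 3 to 6, highest without cTEC replicate 2; median -0.70). Wnt4, a ligand that sustains Foxn1, had 126, 103 and 114 TPM in cTEC against 43.8, 46.2 and 50.1 in mTEC (-1.24, SE 0.26, adjusted p = 0.00974), while Wnt10a was higher in mTEC (2.70, SE 0.40, adjusted p = 0.003). The BMP ligands parted as well: Bmp4 had 16.7, 9.77 and 17.4 TPM in cTEC against 1.89, 0.598 and 0.682 in mTEC (-3.68, SE 0.72, adjusted p = 0.00781). Bmp2 had 15.4, 10.7 and 9.18 in mTEC against 1.58, 1.78 and 1.44 in cTEC (2.92, SE 0.32, adjusted p = 0.000955). Both calls were lost in the 12-library fit (adjusted p = 0.061 and 0.0937). Id3, a target of BMP signalling, was higher in cTEC (-1.67, SE 0.37, adjusted p = 0.0121). Spry1, a target and inhibitor of FGF signalling, had 104, 104 and 34.8 TPM in cTEC against 7.67, 10 and 12.1 in mTEC (-2.85, SE 0.36, adjusted p = 0.00164). Jag2, a Notch ligand, had 272, 167 and 68.3 against 34.2, 16 and 23.3 (-2.49, SE 0.31, adjusted p = 0.00146), and the receptor Notch1 overlapped (adjusted p = 0.48). Frizzled receptors and Wnt ligands as a family had 8 of 26 higher in cTEC (30.8%, against 8.81% over all genes) and 6 in mTEC (23.1%, near the 18%; 2 in cTEC in the 12-library fit, and 3 to 10 in the cTEC direction, the extremes without mTEC replicate 2 and without cTEC replicate 3).

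Of 23 genes linked to progenitor and immature epithelium, 9 were higher in mTEC (39.1%) and 6 in cTEC (26.1%; 3 to 7 in the cTEC direction, lowest without mTEC replicate 2). The list summed to 9861, 11591 and 13529 TPM in cTEC and 22883, 26489 and 29020 in mTEC, of which Ccl21a held 643, 2506 and 2475 and 14333, 18136 and 19881 TPM. Plet1, a surface marker of thymic progenitors, was higher in mTEC (1.98, SE 0.42, adjusted p = 0.0103), and Pdpn, a mucin-type glycoprotein, had 49, 50.9 and 45.2 TPM in cTEC against 11.7, 11.1 and 16.3 in mTEC (-1.83, SE 0.28, adjusted p = 0.0032). Ly6a stood at 5383, 5195 and 8362 TPM in cTEC and 2342, 2565 and 3136 in mTEC (-1.26, SE 0.41, adjusted p = 0.056), and passed without any cTEC replicate (0.0315 to 0.0434) and under the replicate block (0.0455).

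Of 38 interferon-stimulated genes, 9 were higher in cTEC (23.7%, against 8.81% over all genes) and 6 in mTEC (15.8%, under the 18% over all genes; 3 to 12 in the cTEC direction, the extremes without mTEC replicate 2 and without cTEC replicate 3). Isg20, an antiviral exonuclease, had 579, 624 and 396 TPM in cTEC against 76.3, 82.9 and 79.5 in mTEC (-2.67, SE 0.22, adjusted p = 0.000339). Oasl1 went the other way, at 33.6, 41.9 and 29.9 TPM in mTEC against 9.26, 3.3 and 7.31 in cTEC (2.48, SE 0.55, adjusted p = 0.0118). The abundant Ifitm3 and Ifi27l2a did not pass the test (-0.76, SE 0.46, adjusted p = 0.273 and -1.09, SE 0.51, adjusted p = 0.164). Ifitm3 stood at 10814, 11369 and 18912 TPM in cTEC and 6095, 9034 and 9545 in mTEC.

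Of 42 cell cycle genes, 5 were higher in mTEC (11.9%) and 2 in cTEC (4.76%), shares under the 18% and 8.81% over all genes (3 and 1 in the 12-library fit, and 1 to 4 in the cTEC direction on leaving out a library, the extremes without mTEC replicate 1 and without cTEC replicate 3). Cdkn1c, the inhibitor p57, had 304, 291 and 208 TPM in mTEC against 11.8, 20.8 and 18 in cTEC (4.25, SE 0.30, adjusted p = 0.000251). Cdkn2b, at 54.8, 53.9 and 58.1 against 3.91, 5.13 and 2.52 (3.97, SE 0.27), and Cdkn1a, at 189, 168 and 162 against 35.8, 56.5 and 23.6 (2.32, SE 0.23), were higher too. Cdkn2a was called at a low level, 3.75, 3.87 and 3.42 TPM against 0.0857, 0.846 and 0.054 (adjusted p = 0.0409). Its call was lost without a filter (0.052), on counts rebuilt from TPM (0.0507), under the replicate block (0.0676), in the 12-library fit (0.0849), without cTEC replicate 1 (0.0867) and without any mTEC replicate (0.116 to 0.129). Cdk1, a kinase of mitosis, was the fifth, at 67.9, 68.7 and 51 TPM against 29.3, 23.5 and 20.2 (1.31, SE 0.26, adjusted p = 0.00776, and 0.135 in the 12-library fit). The proliferation marker Mki67 overlapped, at 5.22, 3.83 and 3.51 TPM in mTEC and 6.43, 6.25 and 3.42 in cTEC (adjusted p = 0.47). In the Bcl2 family 9 of 21 were higher in mTEC (42.9%, against 18% over all genes) and 2 in cTEC (9.52%, near the 8.81% over all genes; 5 and 1 in the 12-library fit, and 1 in cTEC under the replicate block or without cTEC replicate 1). Bcl2 itself had 37.6, 28.6 and 37.5 TPM in cTEC against 8.83, 12.3 and 15.6 in mTEC (-1.46, SE 0.31, adjusted p = 0.0104), and Bcl2a1d, a survival gene of near-identical copies, was higher in mTEC (5.66, SE 0.77, adjusted p = 0.00227).

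Solute carriers were higher in mTEC in 84 of 346 cases (24.3%, against 18% over all genes; 41 in the 12-library fit). In cTEC 34 were higher (9.83%, near the 8.81% over all genes; 16 in that fit, and 17 to 53 genes, the extremes without mTEC replicate 2 and without cTEC replicate 3). Cytochrome P450 genes were higher in mTEC in 29 of 64 cases (45.3%, against 18% over all genes; 19 genes under the replicate block and in the 12-library fit). Serpins were higher in mTEC in 25 of 47 cases (53.2%, against 18%; 16 genes without mTEC replicate 2, and 12 in the 12-library fit), with 7 serpins higher in cTEC (14.9%, against 8.81%; 4 genes without mTEC replicate 1). Olfactory receptors were called in 18 of 286 tested genes on the mTEC side (6.29%, under the background of 18%; 8 under the replicate block, 9 in the 12-library fit, and 10 to 38 on leaving out a library, the extremes without mTEC and cTEC replicate 3). The annotation holds 1106 of them. Of 369 zinc finger genes named Zfp, 32 were higher in cTEC (8.67%, against 8.81% over all genes) and 5 in mTEC (1.36%; 20 and 2 under the replicate block, and 11 and 1 in the 12-library fit; 1 to 12 in mTEC). The cTEC count was 11 to 69 over the libraries left out (lowest without mTEC replicate 2, highest without cTEC replicate 3). Ribosomal protein genes gave no call in 84 and their median was -0.40, with 5 called higher in cTEC without cTEC replicate 2.

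Hox genes, whose number follows their order from head to tail, were called in 11 of 23 cases in mTEC (47.8%; 5 in the 12-library fit, 4 under the replicate block, and 7 without mTEC replicate 1) and in 3 in cTEC (13%; 1 in that fit, 0 without mTEC replicate 1). Those higher in cTEC were Hoxa2 (-1.74, SE 0.42, adjusted p = 0.0177), Hoxa3 (-2.09, SE 0.55, adjusted p = 0.0254) and Hoxb3 (-2.18, SE 0.58, adjusted p = 0.026, and 0.0832 under the replicate block), all of anterior groups. Without mTEC replicate 1 or 2 none of the 3 was called. The highest of those in mTEC was Hoxb13, of the most posterior group, at 3.43, 5.06 and 4.46 TPM with no count in cTEC (at least 67-fold higher). Hox genes were named after their values were seen.

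Genes of either direction were followed by a gene of the same direction more often than tested genes in general. The next tested gene along the chromosome was also higher in mTEC for 33% of the mTEC-higher genes, against 18% over all tested genes, and for cTEC-higher genes the same share was 16.3% against 8.82%. The longest run was 20 tested genes on chromosome 3, from 92707401 to 93293686 (mm10), from the late cornified envelope genes to Flg. Another 12 genes from 92080271 to 92409271 of the same chromosome covered Lor and Sprr2 genes. On chromosome 5, 11 genes from 87575969 to 88468531 held the caseins, and on chromosome 8, 14 genes from 20882363 to 21428391 held alpha-defensins. No run of 6 or more was higher in cTEC. Neighbours in such clusters often are similar copies that can share reads, so they are not independent counts.

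Promoters of the genes also differed between the directions, described here over 300-base RefSeq windows (250 before and 50 after the start). Genes higher in mTEC had a median CpG ratio of 0.325, and 47.2% of their 2421 matched promoters were under 0.3. Genes higher in cTEC had a median of 0.721 and 12.3% under 0.3, close to the genes without a call (0.736 and 15.6%). TATAAA within the 50 bases before the start, on the gene's strand, was in 8.43% of mTEC-higher, 1.29% of cTEC-higher and 1.71% of uncalled genes, and in 3.45% of all promoters. GGGCGG, on either strand of the window, was in 36.8% of mTEC-higher and 68.5% of cTEC-higher promoters, against 59.3% of uncalled genes, 56.1% of all tested genes and 47.4% of all promoters. Near-identical copies in clusters share promoter letters, so promoters are not independent counts. The Prss29 and Ppy windows above are of the CpG-poor kind with TATAAA.

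**Figure D5:**
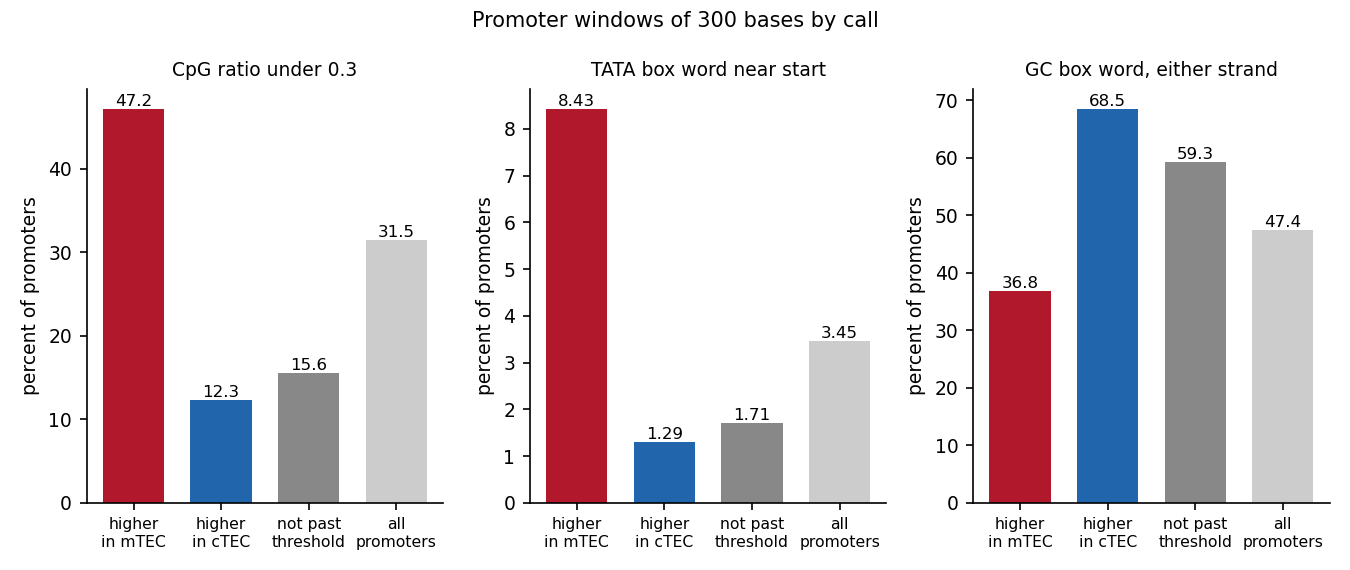
Bars give the percent of 300-base promoter windows with a CpG ratio under 0.3, with TATAAA on the gene's strand in the 50 bases before the start, and with GGGCGG on either strand, for genes higher in mTEC, higher in cTEC, not past the threshold and for all promoters matched. Genes higher in mTEC had the highest share in the first 2 panels (47.2% and 8.43%) and the lowest in the third (36.8%).

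Breadth of expression was read per library. At 1 TPM or more, 17703, 16530 and 16756 genes were detected in mTEC and 14466, 14148 and 13547 in cTEC, a mean of 16996 ± 622 (SD, n = 3) against 14054 ± 467. The groups did not overlap, and the exact two-sided permutation test gave p = 0.1, the smallest that 3 against 3 libraries allow. The number of genes that held 50% of the TPM was 394, 311 and 310 in mTEC and 486, 526 and 235 in cTEC (exact permutation p = 0.4). The mean difference, mTEC less cTEC, was -77.3 genes, and it was -168 without cTEC replicate 3, when the groups did not overlap (exact permutation p = 0.1), -42.2 without cTEC replicate 1 and -22.2 without cTEC replicate 2.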

How the data were processed

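RNA of sorted WT cTEC and mTEC, 3 pools each, was sequenced from SMART-Seq v4 libraries in 50-base pairs, a kit that keeps no strand. The authors quantified the reads with kallisto (version 0.43, mm10) and deposited, per transcript, estimated counts and TPM, which are scaled for transcript length and library size. A further deposited table of values normalised over all samples was not used. Here, estimated counts and TPM were summed per gene through the GENCODE M21 annotation. Of 109282 transcripts, 1295 had no gene, which held 0.45 to 0.502% of the counts of a WT library.

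Rounded sums were tested in edgeR 4.0.16 (R 4.3.3) with TMM scaling, filterByExpr and the robust quasi-likelihood test on the 6 WT libraries, with Benjamini-Hochberg adjustment and a threshold of 0.05. Breadth was compared by exact permutation in Python 3.11.15 with numpy 2.4.6, and its paired differences by exact flipping of their signs. The steps were tested on simulated data. Alternatives were DESeq2 1.42.0, other scaling, filters, counts rebuilt from TPM, all 12 libraries, the replicate block and leaving out each library. The study tabulates sorting yields of both subsets under each replicate, from which a shared pool of mice for same-numbered libraries was inferred for the replicate block. The labels do not state it. The deviations of same-numbered libraries from the group means correlated at 0.283, 0.0116 and 0.134 for replicates 1, 2 and 3.

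Genes named are the markers, members of lists and families, and the 15 protein-coding genes with the largest difference in either direction. These 15 were taken from genes past the threshold whose libraries did not overlap, at a mean of 10 CPM or more in the higher subset. Members and lists were chosen with earlier results of these data known. Replicates are pools of mice, and p-values measure the spread between pools. Depth was 21710319 to 33334258 estimated counts, and 3 counts served as the floor where cTEC had none, covering counting error only.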

Additional observations from a re-analysis of the deposited data

How the results depend on the processing

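Directions of the markers held in every alternative. Calls numbered 6899 with DESeq2, 4929 with RLE factors, 4784 without scaling factors, 5210 without a filter, 5055 at a mean of at least 10 counts and 4475 on counts rebuilt from TPM. A fit on all 12 libraries, which shares the spread with the other genotype, gave 2760 (1872 higher in mTEC, 888 in cTEC), 1900 at 4-fold (1606 and 294) and 537 among list members, against 931. In that fit the calls of Enpep, Ptprc, Cd79b, Dll4, Erap1, Il34, Ren1, Cldn8, Bmp4, Bmp2, Oasl1, Cdkn2a, Cdk1, Hoxa2, Hoxb3, Lor and Rgs5 were lost (adjusted p 0.0524 to 0.279). The cause was not tested.

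With the replicate block there were 3820 calls (2515 and 1305), 2413 of the mTEC calls and 1251 of the cTEC calls being shared with the fit without it, and 770 list members. The paired difference in genes detected was 2943 (exact sign-flip test p = 0.25) and in genes holding 50% of the TPM -77.3 (p = 0.5), where no smaller p than 0.25 was possible. Other values under the block stand beside the results.

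Leaving out each library gave 3395 to 7572 calls, highest without cTEC replicate 3, with 795 to 2734 in the cTEC direction, 2621 to 4361 calls at 4-fold, and 637 to 1241 among list members. In the cTEC direction there were 932, 795 and 872 without mTEC replicates 1, 2 and 3. The difference in genes holding 50% of the TPM (-77.3) turned to 416 for 90% of the TPM. At 4-fold, the next gene was also higher in cTEC for 7.61% of cTEC-higher genes, against 2.4% over all tested genes at that limit. Psmb5, never called, moved from 0.12 to -0.03 without cTEC replicate 1 (0.41 without replicate 3). Genes near 0 in cTEC are limited by the counts of those libraries.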

Other observations

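Families that enter no comparison above are given here beside the shares over all tested genes, 18% higher in mTEC and 8.81% higher in cTEC. Of 17 S100 genes, small calcium-binding proteins, 7 were higher in mTEC (41.2%) and 1 in cTEC (5.88%; 0 to 2 genes in the cTEC direction on leaving out a library). S100a14 had 564, 501 and 405 TPM in mTEC against 59.1, 46.8 and 43 in cTEC (log2 fold change 3.28, SE 0.26, edgeR adjusted p = 0.000319), and S100g, an intestinal calcium carrier, had 529, 478 and 394 against 1.77, 20.5 and 11.1 (5.40, SE 0.76, adjusted p = 0.00252). Mucins were higher in mTEC in 10 of 15 cases (66.7%; 7 genes under the replicate block and 4 in a fit on all 12 libraries), with the membrane mucin gene Muc1 at 150, 106 and 81.5 TPM against 7.07, 11.5 and 3.64 (3.75, SE 0.48, adjusted p = 0.00178). Potassium channels were higher in mTEC in 23 of 61 cases (37.7%; 15 genes without mTEC replicate 1) and in cTEC in 5 (8.2%; 2 genes in a fit on all 12 libraries, and 3 to 7 on leaving out a library, the extremes without mTEC replicate 1 and without cTEC replicate 3).

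Forkhead factors were higher in mTEC in 11 of 35 cases (31.4%) and in cTEC in 5 (14.3%; 3 under the replicate block, and 3 to 7 on leaving out a library, the extremes without mTEC replicate 1 and without cTEC replicate 3). The mTEC count was 3 without mTEC replicate 1 and 4 in a fit on all 12 libraries. In the Toll-like receptor pathway, 4 of 18 genes were higher in mTEC (22.2%) and 2 in cTEC (11.1%). Without mTEC replicate 1 and in a fit on all 12 libraries the mTEC count was 1, with DESeq2 it was 7, and under the replicate block or without cTEC replicate 2 the cTEC count was 1. Unc93b1, the chaperone of endosomal receptors, had 66.7, 59.6 and 61.3 TPM in mTEC against 24.4, 22.6 and 11.2 in cTEC (1.87, SE 0.20, adjusted p = 0.000835).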
